A study of Rattus norvegicus with 21 samples.

Results

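The macrophage and myeloid genes described here are a list of 39 genes that mark macrophages or carry out their functions, from receptors and complement to lysosomal and lipid-handling proteins. They were found by gene symbol in the annotation of the array, and where a gene had several probe sets that of the highest mean signal on the 21 arrays was kept (1 gene, Cd36). A probe set under the listed symbol was found for 37 of the 39 genes, among 14506 named genes and 29214 probe sets in all, while the scavenger receptor gene Msr1 and the integrin gene Itgax had no such probe set.

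Macrophages live in nearly every tissue, the pituitary included, where they take up dying cells, debris and opsonised material. Their growth and survival depend largely on the receptor CSF1R, which binds CSF1 and IL-34, and their lineage genes are controlled by the transcription factor PU.1, encoded by Spi1. They bind targets through scavenger, Fc and complement receptors, secrete the recognition protein C1q, digest what they take up in lysosomes, and present peptides on MHC class II with the help of the invariant chain, encoded by Cd74.

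The MENX rat is homozygous for a germline mutation in Cdkn1b, the gene of the cell cycle inhibitor p27Kip1 (Cdknb1 in the labels), and develops pituitary adenomas. Gene-level arrays (Affymetrix Rat Gene 1.0 ST) gave the expression of 16 lesions from pituitaries of homozygous mutant rats and of 5 normal pituitaries of wildtype rats, all of the strain given as Sprague–Dawley white eye/Wistar–Kyoto, with RNA from macrodissected tissue. The lesions carried 9 sample numbers, read as 9 rats of 7 to 12 months (6 female and 3 male), and lesions of 1 number were averaged to give adenomas 1 to 9. The wild-type rats were all 6 months old (2 female and 3 male), so that genotype, tumour and age cannot be told apart. The study's own text gives more mutant rats than there are numbers. It puts their age at 8 months in 1 place and at 7 to 8 months in another, so that it differs from the labels on number and age. The reading of a number as 1 rat and the ages, which follow the labels here, are therefore uncertain, and p-values measure the spread between these averaged samples. In such bulk tissue a higher value of a macrophage gene can come from more macrophages, from more RNA per macrophage or from another cell type, and these cannot be told apart either. Every level below is a log2 expression value, and every log2 fold change is the mean of 9 adenomas minus the mean of 5 wild-type pituitaries.

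The promoters of several genes are shown first because PU.1 controls genes of the macrophage lineage, and GAGGAA was searched as the core of its site. Other forms of the site were not searched, and whether PU.1 controls these genes here was not tested. The promoter stretches below are the 250 bases before the transcription start in RefSeq (build GRCr8), written 5′ to 3′ along the gene, with each GAGGAA core and its complement on the other strand, TTCCTC, in capitals. C1qa (chr5:154419934-154420183, minus strand) and C1qb (chr5:154407828-154408077, minus strand) stand for C1q chain genes of the same chromosome that were both up-regulated. Cd68 (chr10:54882442-54882691, minus strand) stands for an up-regulated lysosomal gene, and Csf1r (chr18:56834129-56834378, plus strand) for a gene that was not up-regulated.
C1qa: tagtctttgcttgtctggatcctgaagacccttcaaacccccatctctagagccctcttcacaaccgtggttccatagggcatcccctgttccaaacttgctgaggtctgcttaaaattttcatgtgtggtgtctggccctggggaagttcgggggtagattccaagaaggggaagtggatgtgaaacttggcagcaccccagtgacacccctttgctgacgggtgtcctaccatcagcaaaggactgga
C1qb: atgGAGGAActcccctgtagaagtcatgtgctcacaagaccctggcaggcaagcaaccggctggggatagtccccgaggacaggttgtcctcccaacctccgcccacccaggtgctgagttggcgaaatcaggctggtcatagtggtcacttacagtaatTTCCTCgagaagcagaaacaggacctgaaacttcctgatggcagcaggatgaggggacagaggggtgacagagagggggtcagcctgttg
Cd68: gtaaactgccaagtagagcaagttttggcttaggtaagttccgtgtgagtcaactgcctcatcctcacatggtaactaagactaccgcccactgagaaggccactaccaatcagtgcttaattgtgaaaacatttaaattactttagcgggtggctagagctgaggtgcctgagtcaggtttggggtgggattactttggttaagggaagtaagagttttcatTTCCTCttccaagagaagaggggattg
Csf1r: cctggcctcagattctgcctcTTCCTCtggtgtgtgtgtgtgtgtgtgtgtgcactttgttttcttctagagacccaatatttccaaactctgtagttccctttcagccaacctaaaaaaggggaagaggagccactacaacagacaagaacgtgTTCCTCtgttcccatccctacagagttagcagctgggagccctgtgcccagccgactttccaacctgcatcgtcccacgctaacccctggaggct
The C1qa stretch holds no GAGGAA core on either strand, C1qb holds 1 on each strand, Cd68 holds 1 and Csf1r holds 2 on the other strand. Of the 37 measured genes 25 had a promoter in the table, and 19 of these (76.0%) held the core on either strand, against 6379 of all 27457 promoters (23.2%). Among the matched genes the core was present in 7 of 10 that were up-regulated and in 12 of 15 that were not called. These matches describe letters only and do not show binding.

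Array medians lay between 6.36 and 6.53. The pituitary origin of the wild-type tissue was visible in its hormone genes, with growth hormone (Gh1) at 13.98 ± 0.12 and Pomc at 11.87 ± 0.46 (SD, n = 5). In the adenomas 7 of 10 genes of the hormone cells were lower and 2, Gnrhr and Cga, were higher. Cdkn1b itself was at 8.91 in wild-type and 9.23 in mutant tissue (log2 fold change 0.33, adjusted p = 0.0325), a level that does not check the genotype labels, since a mutation need not change the amount of its transcript.

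Of the 37 macrophage and myeloid genes 16 were up-regulated in the adenomas (limma, adjusted p under 0.05 over all probe sets) and none was down-regulated (none at an unadjusted p under 0.05 either), where 8.49% of all probe sets were higher and 9.06% were lower. The median log2 fold change was 0.62 over the 37 genes and -0.03 over all probe sets. Values were higher in the adenomas for 32 genes and lower for 5. The 16 called genes had log2 fold changes from 0.33 to 1.81, and 11 of them had a fold over 2. The 21 genes without a call had log2 fold changes from -0.78 to 0.95, and 4 of them, Cd36, Ctss, Lyz2 and Cybb, had an unadjusted p under 0.05. In 6 genes every adenoma lay above every wild-type pituitary, namely Cd163, C1qa, Lyn, Laptm5, Gpnmb and Lgals3, which was the case for 2.66% of all probe sets. By function, the called genes were 4 of 5 for lipid, repair, heme and oxidant handling, 3 of 3 C1q chains, 3 of 7 scavenger and pattern recognition receptors, and 2 each of 5 Fc receptor and ITAM genes, 7 leukocyte surface genes and 6 lysosome and protease genes. No gene of the CSF1 axis and PU.1 was called among 3, nor was Cd74.

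**Figure D1:**
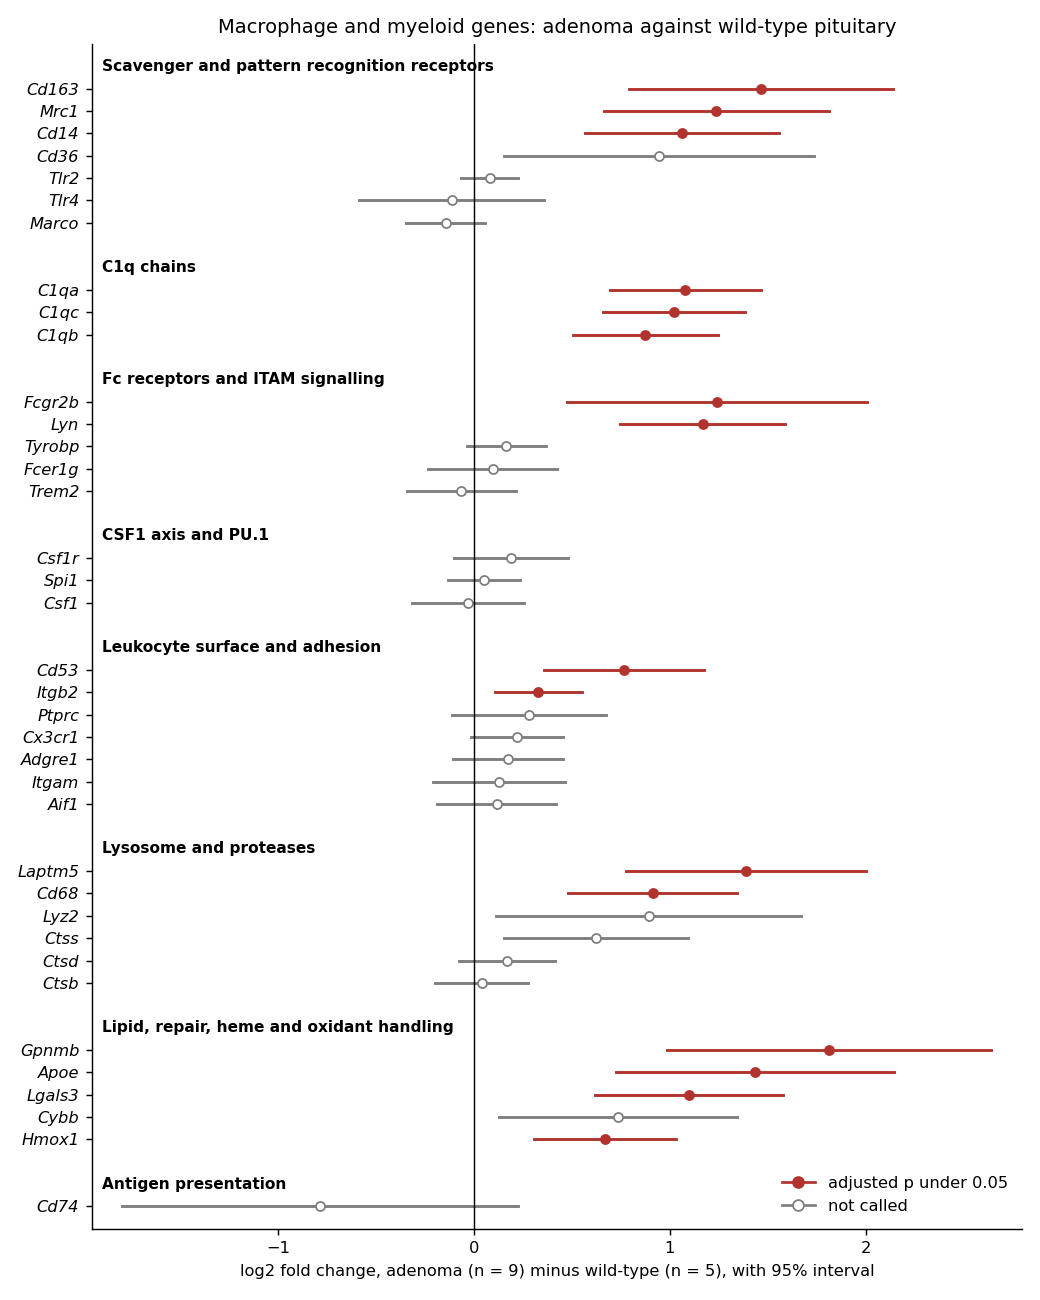
Log2 fold change with its 95% interval (horizontal axis) of each of the 37 genes, grouped by function, for 9 adenomas against 5 wild-type pituitaries; filled red points passed limma's test at an adjusted p under 0.05 and open grey points did not. The 16 red genes lie between 0.33 and 1.81, whereas Csf1r, Spi1 and Csf1 lie near 0 and Cd74 lies at -0.78 with a wide interval.

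The number of called genes was smaller in subsets of the samples, which also hold fewer samples. The sample numbers begin with 08 (5 adenomas and 2 wild-type pituitaries, and all 3 male adenomas) or 09 (4 adenomas and 3 wild-type pituitaries). With the prefix as a block 16 genes were higher. Within prefix 08 alone 1 gene, C1qc, was higher (1.24% of all probe sets, median log2 fold change of the 37 genes 0.30), and within prefix 09 alone 10 were higher (6.79% of all probe sets, median 0.40). Against the 2 adenomas of 7 and 8 months, the nearest in age to the wild-type rats, limma called none of the 37 genes (0.407% of all probe sets were higher), with a median of 0.30 and 7 genes higher at an unadjusted p under 0.05. How many of all probe sets passed that unadjusted threshold was not counted.

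Among scavenger and pattern recognition receptors 3 of 7 were up-regulated, with a median log2 fold change of 0.95. Cd163, the hemoglobin scavenger receptor of tissue macrophages, was at 5.61, 5.67, 5.25, 5.60 and 5.59 in wild-type pituitaries 1 to 5. In the adenomas it ranged from 5.83 over a median of 7.06 to 8.15, so that the groups did not overlap. The difference was 1.47 ± 0.32 (SE) on the log2 scale, a 2.76-fold increase (adjusted p = 0.00576). The mannose receptor gene Mrc1 (CD206), an endocytic receptor of resident macrophages, was at 6.44, 6.24, 5.99, 5.72 and 6.27 in wild-type tissue. Adenoma values of Mrc1 ran from 6.42 over 7.52 to 8.17, and only the lowest, adenoma 6, fell within the wild-type range. Mrc1 rose by 1.24 ± 0.27 (2.36-fold, adjusted p = 0.00597). Cd14, a co-receptor for bacterial lipopolysaccharide, was at 6.57, 7.60, 7.04, 6.34 and 6.24 in wild-type pituitaries and from 7.03 over 7.91 to 8.32 in adenomas. In 6 of 9 adenomas Cd14 exceeded all wild-type values, and it rose by 1.06 ± 0.23 (2.09-fold, adjusted p = 0.00617).

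The other receptors of the group were not called. Cd36, a receptor for fatty acids and oxidised lipoproteins, varied widely among adenomas, from 4.01 over 5.17 to 6.78, against 3.81 to 4.64 in wild-type tissue, and its log2 fold change of 0.95 (95% interval 0.16 to 1.73, adjusted p = 0.0913) missed the threshold. Cd36 passed without adenoma 7, which had the lowest value (log2 fold change 1.09, adjusted p = 0.0499), with lesions as independent samples (1.18, adjusted p = 0.0413) and with sex as a covariate (1.11, adjusted p = 0.0448). The lipopolysaccharide receptor gene Tlr4 was at -0.11 (-0.58 to 0.36), the lipoprotein receptor gene Tlr2 at 0.08 (-0.07 to 0.23) and the scavenger receptor gene Marco at -0.14 (-0.35 to 0.06). Cd14 was thus up-regulated where its signalling partners Tlr4 and Tlr2 were not called. Tlr2, Marco and Cd36 have a mean signal below that of the median probe set, where the array understates a fold.

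All 3 chains of C1q, the molecule that starts the classical complement pathway, were up-regulated. C1qa was at 7.39, 7.32, 6.85, 6.53 and 7.01 in wild-type pituitaries and from 7.40 over 8.24 to 8.43 in adenomas, so that all 9 adenomas lay above the wild-type values, the lowest of them barely. C1qc was at 8.41, 7.85, 7.84, 7.47 and 7.98 in wild-type tissue and from 8.18 over 9.05 to 9.33 in adenomas. C1qb was at 7.42, 6.96, 6.72, 6.41 and 6.94 in wild-type tissue and from 7.06 over 7.86 to 8.13 in adenomas. Adenoma 6 was the lowest adenoma in each chain, and for C1qb and C1qc it alone lay within the wild-type range, whose upper end was set by wild-type pituitary 1. Log2 fold changes were close to each other, 1.08 ± 0.18 for C1qa (adjusted p = 0.00122), 1.02 ± 0.17 for C1qc (adjusted p = 0.00113) and 0.87 ± 0.17 for C1qb (adjusted p = 0.0036).

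Of the Fc receptor and ITAM signalling genes 2 of 5 were up-regulated, with a median log2 fold change of 0.17. Fcgr2b encodes the inhibitory Fc receptor for IgG, and Lyn encodes a Src family kinase that phosphorylates both activating and inhibitory motifs. Lyn was at 5.76, 5.92, 6.10, 5.73 and 5.78 in wild-type pituitaries and from 6.34 over 7.11 to 7.67 in adenomas, without overlap. It rose by 1.17 ± 0.20 (2.25-fold, adjusted p = 0.00129). Fcgr2b was at 5.31, 5.01, 4.97, 5.08 and 5.53 in wild-type tissue and from 5.43 over 6.50 to 7.47 in adenomas. Its adenoma values were spread over a wide range, with adenomas 1, 4, 6 and 8 between 5.43 and 5.73 and the other 5 between 6.50 and 7.47. Fcgr2b rose by 1.24 ± 0.36 (2.36-fold, adjusted p = 0.0281), and leaving out wild-type pituitary 3 or 4 ended the call (at 1.19 and 1.22). With all samples kept, the call was also lost with array weights in limma (1.39, adjusted p = 0.0545). The same held for the methods' t-test on averaged values (1.24, adjusted p = 0.0578). The mean signal of Fcgr2b is below that of the median probe set.

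The adaptors of activating receptors and Trem2 were not called. Fcer1g, the common gamma chain of activating Fc receptors, was at 8.56, 8.27, 8.64, 7.69 and 7.86 in wild-type tissue and from 8.11 over 8.25 to 8.67 in adenomas, and the groups overlapped almost fully (log2 fold change 0.10, 95% interval -0.23 to 0.43, adjusted p = 0.708). Tyrobp, which encodes the adaptor DAP12, was at 0.17 (-0.03 to 0.37), and Trem2, a lipid-sensing receptor that signals through DAP12, was at -0.06 (-0.34 to 0.21). All 9 Trem2 values of the adenomas lay within the wild-type range, and its mean signal is below that of the median probe set, where the array understates a fold.

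None of the 3 genes of the CSF1 axis and PU.1 was called. Csf1r, the receptor on which macrophage survival depends, was at 8.19, 7.72, 7.89, 7.52 and 7.94 in wild-type pituitaries and from 7.74 over 8.06 to 8.48 in adenomas. All but 2 adenomas (7 and 9) lay within the wild-type range. The log2 fold change of Csf1r was 0.19 (95% interval -0.10 to 0.48, adjusted p = 0.364), which leaves a rise of up to 0.48 within the interval. Spi1 was at 5.86, 5.42, 5.50, 5.69 and 5.69 in wild-type tissue and from 5.53 over 5.65 to 5.98 in adenomas, with a log2 fold change of 0.05 (-0.13 to 0.24). The growth factor gene Csf1 was at 5.97, 6.00, 6.69, 6.41 and 6.34 in wild-type tissue and from 5.94 over 6.27 to 6.57 in adenomas, at -0.03 (-0.32 to 0.25). Spi1 and Csf1 have signals below the median probe set, Csf1r does not.

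**Figure D2:**
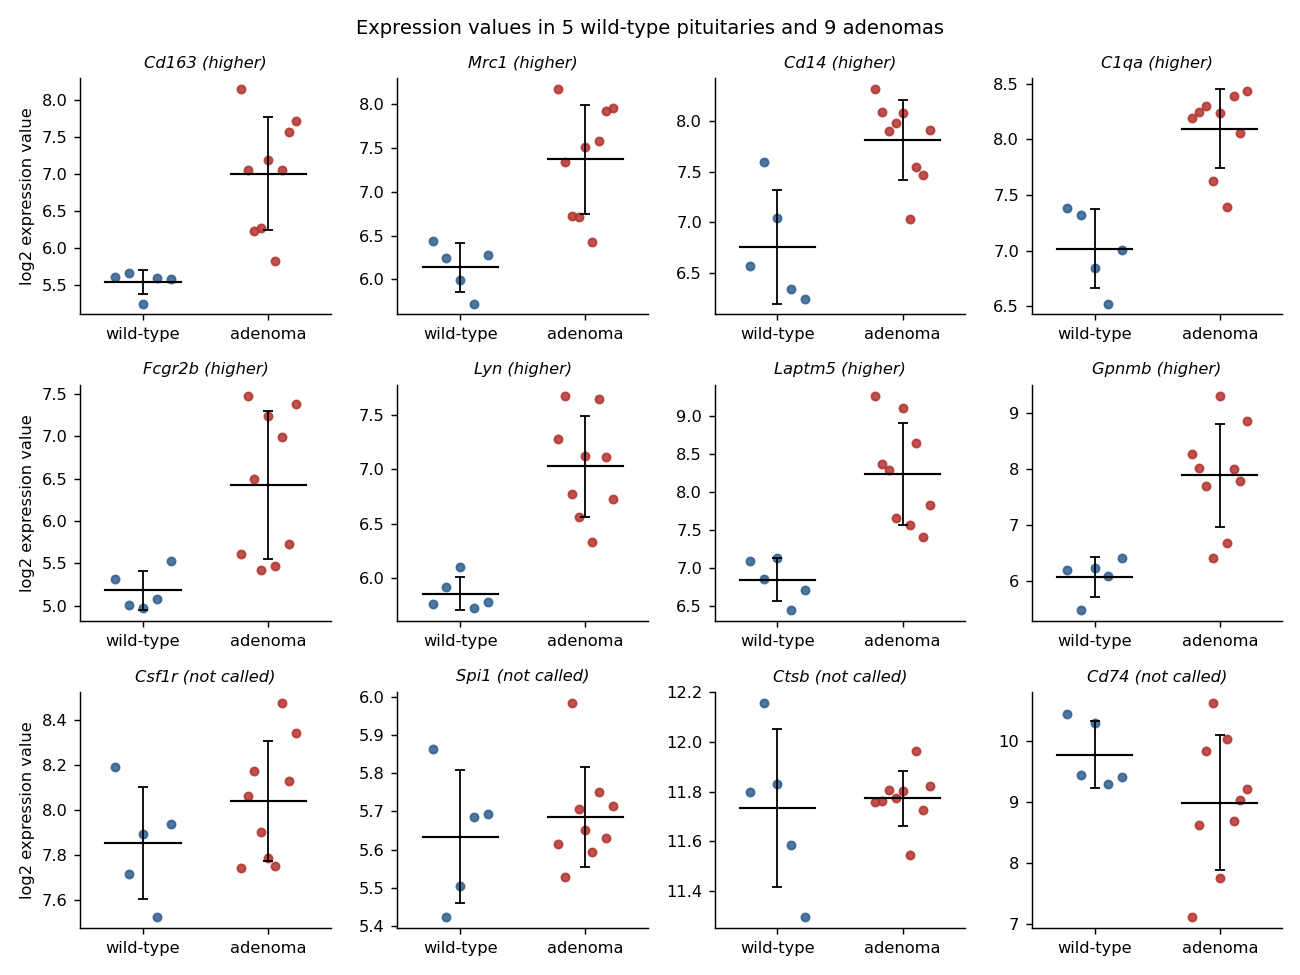
Log2 expression values (vertical axis, scaled to each gene) of 12 of the genes in 5 wild-type pituitaries (blue) and 9 adenomas (red); each point is 1 sample, with lesions of 1 number averaged, and the black bars give the mean and SD. Adenomas lie above all wild-type values for Cd163, C1qa, Lyn, Laptm5 and Gpnmb, the groups overlap for Csf1r, Spi1 and Ctsb, and the adenoma values of Cd74 spread from 7.12 to 10.62.

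Whether the other genes changed more than Csf1r was then tested. Csf1r was chosen as the reference with earlier results of these data known, and the comparison was added after the design was set. A gene called higher tends to pass against a gene that is not, so this test adds no independent support for the calls. Csf1r was subtracted from every other probe set in the same sample, and the resulting differences were fitted in the same way over all probe sets. The spread of Csf1r enters every difference, so these tests are not independent, and limma's pooled variance holds that shared spread too. Their adjusted p-values may therefore be too small. The change was larger than that of Csf1r for 13 of 36 genes and smaller for none, against 2.14% of all probe sets with a larger change. By the methods' t-test on the same averaged values this count was 2, against 183 of 29213 probe sets. It was 8 within prefix 08 alone (478 probe sets), 5 within prefix 09 alone (405) and 0 against the adenomas of 7 and 8 months alone (96). The 13 were Cd163, Mrc1, Cd14, C1qa, C1qb, C1qc, Fcgr2b, Lyn, Cd68, Laptm5, Apoe, Gpnmb and Lgals3, all of them among the up-regulated genes, by 0.69 to 1.63 on the log2 scale. For C1qa, for example, the change exceeded that of Csf1r by 0.89 (95% interval 0.52 to 1.27, adjusted p = 0.0019). For Cd53, Hmox1 and Itgb2, which were themselves up-regulated, a larger change than that of Csf1r was not shown (adjusted p = 0.0959, 0.181 and 0.627).

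Leukocyte surface and adhesion genes were up-regulated in 2 of 7 cases, with a median log2 fold change of 0.22. The tetraspanin gene Cd53, found on most leukocytes, was at 6.61, 6.59, 6.66, 6.00 and 5.78 in wild-type pituitaries and from 6.55 over 7.02 to 7.73 in adenomas. It rose by 0.77 ± 0.19 (1.70-fold, adjusted p = 0.0134), and adenoma 1 alone fell within the wild-type range. Itgb2, the shared beta chain of the leukocyte integrins, rose by 0.33 ± 0.10 (adjusted p = 0.0412), the smallest of the called changes. Its call was lost without any of wild-type pituitaries 2 to 5 or of adenomas 2, 3, 4, 5, 8 and 9 (log2 fold changes 0.28 to 0.36). The common leukocyte gene Ptprc (CD45) was at 0.28 (-0.11 to 0.67), the fractalkine receptor gene Cx3cr1 at 0.22 (-0.01 to 0.46), Adgre1 (F4/80) at 0.18 (-0.11 to 0.46), Itgam (CD11b) at 0.13 (-0.21 to 0.47) and Aif1 (IBA1) at 0.12 (-0.19 to 0.42). These general markers of the macrophage lineage were not called, and their intervals reach at most 0.67. Itgam and Adgre1 have a mean signal below that of the median probe set, where the array understates a fold.

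In the lysosome and protease group Cd68 and Laptm5 were up-regulated, 2 of 6. Laptm5, a lysosomal membrane protein of hematopoietic cells, was at 7.10, 6.86, 7.14, 6.44 and 6.71 in wild-type pituitaries and from 7.41 over 8.29 to 9.26 in adenomas, without overlap. It rose by 1.39 ± 0.29 (2.62-fold, adjusted p = 0.00461), most in adenomas 1 and 5. Cd68, a lysosomal membrane glycoprotein widely used to stain macrophages, was at 6.60, 6.02, 6.61, 5.76 and 5.68 in wild-type tissue and from 6.50 over 6.95 to 7.69 in adenomas. It rose by 0.91 ± 0.20 (1.88-fold, adjusted p = 0.00678), with adenoma 6 alone within the wild-type range.

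The proteases and lysozyme were not called. Cathepsin B (Ctsb) and cathepsin D (Ctsd), which all cells use, were at 0.04 (95% interval -0.20 to 0.28) and 0.17 (-0.08 to 0.41). Cathepsin S (Ctss), the cathepsin of antigen-presenting cells, was at 8.82, 8.65, 7.95, 7.97 and 8.57 in wild-type pituitaries and from 8.16 over 9.14 to 9.48 in adenomas. At a log2 fold change of 0.62 (0.15 to 1.09, adjusted p = 0.0634) it missed the threshold, and it passed without wild-type pituitary 1, adenoma 4 or adenoma 6 (log2 fold changes 0.69 to 0.73). The lysozyme gene Lyz2 was at 0.89 (0.11 to 1.67, adjusted p = 0.105), where wild-type pituitaries 4 and 5 (6.21 and 6.24) lay well below the other 3 (7.71 to 8.01).

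Of the genes for lipid, repair, heme and oxidant handling 4 of 5 were up-regulated, with a median log2 fold change of 1.10, the highest of the groups. Gpnmb, a glycoprotein of lysosomes in lipid-laden and repair macrophages, was at 6.19, 5.47, 6.22, 6.08 and 6.40 in wild-type pituitaries and from 6.41 over 7.99 to 9.30 in adenomas. Adenoma 4 barely exceeded the highest wild-type value, and adenoma 5 was the highest. The increase of 1.81 ± 0.39 (3.51-fold, adjusted p = 0.00555) was the largest among the 37 genes. The apolipoprotein E gene Apoe, which carries lipid out of macrophages and is also made by other cells, was at 10.49, 10.00, 10.10, 9.98 and 10.73 in wild-type tissue and from 10.50 over 11.45 to 13.04 in adenomas. It rose by 1.43 ± 0.33 (2.70-fold, adjusted p = 0.00886), most in adenomas 2 and 5.

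Lgals3, which encodes galectin-3, was at 6.14, 6.02, 6.43, 6.24 and 6.09 in wild-type pituitaries and from 6.44 over 7.14 to 8.22 in adenomas, without overlap, and rose by 1.10 ± 0.23 (2.14-fold, adjusted p = 0.00428). Hmox1, the enzyme that breaks down heme after its uptake through receptors such as CD163, was at 5.92, 5.67, 6.31, 5.88 and 6.00 in wild-type tissue and from 6.01 over 6.52 to 7.14 in adenomas. It rose by 0.67 ± 0.17 (1.59-fold, adjusted p = 0.0145). Cybb, the catalytic subunit of the phagocyte NADPH oxidase, was not called, at 0.74 (0.13 to 1.34, adjusted p = 0.0881). Its wild-type values again fell into 8.41 to 8.88 for pituitaries 1 to 3 and 7.13 and 7.19 for pituitaries 4 and 5, and it passed without wild-type pituitary 1 (log2 fold change 0.95).

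Cd74, the invariant chain of MHC class II, had the lowest log2 fold change, -0.78 (95% interval -1.80 to 0.23, adjusted p = 0.268), and was not called. It was at 10.44, 9.44, 10.30, 9.30 and 9.41 in wild-type pituitaries and from 7.12 over 9.03 to 10.62 in adenomas. In 6 of 9 adenomas Cd74 lay below all wild-type values and in adenoma 4 above all of them. Its spread was 1.10 (SD, n = 9) among adenomas and 0.54 (SD, n = 5) in wild-type tissue, and the adenomas with the lowest Cd74 values, 1 and 5, were those with the highest Laptm5 values.

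The other genes of the same pathways were described by their lists. Beside the counts in these lists, and in the lists of cell markers further below, 8.49% of all probe sets were higher and 9.06% were lower. The lists are short, and a count near these shares is not read as a result about its list. Among colony-stimulating factors and myeloid transcription factors 2 of 14 were higher and none was lower (median log2 fold change 0.01), namely Csf2rb, the common beta chain of the GM-CSF, IL-3 and IL-5 receptors (0.44, adjusted p = 0.0436), and Id3, an inhibitor of helix-loop-helix factors (0.78, adjusted p = 0.0108). Il34, which encodes the other ligand of CSF1R, was at 0.14 (-0.33 to 0.60). No gene of MHC class II and co-stimulation was called among 10 (median -0.12), and none passed at an unadjusted p under 0.05. Of the 3 subunits of NADPH oxidase measured besides Cybb none was called (median -0.19), with 1 higher and 2 lower at an unadjusted p under 0.05.

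Of 8 other complement genes 2 were higher and none was lower (median 0.27). These were C1s (1.25, adjusted p = 0.00239) and C1r (0.84, adjusted p = 0.0323), the proteases that C1q carries. With the C1q chains, every component of the C1 complex was called higher, whereas C3, the central component, was at -0.49 (-0.91 to -0.07, adjusted p = 0.0985). Of 11 inflammatory mediators 1 was higher, the cytokine gene Il18 (1.45, adjusted p = 0.0308), and 1 was lower (median -0.01). Over all probe sets 8.49% were higher and 9.06% lower. The lower gene was the prostaglandin synthase gene Ptgs2 (-0.70, adjusted p = 0.0115). No adenoma value of Ptgs2 lay below all wild-type values. Its SD was 0.568 in wild-type tissue and 0.075 in adenomas, whose mean of 4.55 is below the median probe set (6.43).

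Genes of resident and alternatively activated macrophages were higher in 2 of 11 cases with none lower (median 0.22), where 8.49% of all probe sets were higher. These were Arg1, which encodes arginase 1 (1.45, adjusted p = 0.00637), and the folate receptor gene Folr2 (0.36, adjusted p = 0.0253). In the lysosome and lipid list 4 of 18 were higher and none was lower (median 0.30). These were the cholesterol exporter genes Abcg1 (0.88, adjusted p = 0.000475) and Abca1 (0.68, adjusted p = 0.0289), the hexosaminidase gene Hexa (0.46, adjusted p = 0.0469) and the lysosomal cholesterol transporter gene Npc1 (0.32, adjusted p = 0.0281). The list for the clearance of dying cells had 3 of 9 genes higher and none lower (median -0.01), namely Mfge8, a bridge between dying cells and phagocytes (1.00, adjusted p = 0.0053), Pros1, a ligand of the TAM receptors (0.69, adjusted p = 0.0353), and the TAM receptor gene Axl (0.53, adjusted p = 0.0408).

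Phagocyte signalling and cytoskeleton genes were called in both directions, 2 higher and 2 lower of 17 (median 0.10). Over all probe sets 8.49% were higher and 9.06% lower, so these counts are not read as a result about the list. The Src family kinase gene Fgr (0.54, adjusted p = 0.0297) and the adaptor gene Lcp2 (0.41, adjusted p = 0.0339) were higher. Plcg2, a phospholipase downstream of ITAM receptors, was lower by far (-1.55, adjusted p = 5.89e-05), and Nckap1l, a subunit of the hematopoietic WAVE complex, was at -1.37 (adjusted p = 0.00195). Many of the genes in these lists are also expressed by cells other than macrophages, and which cells carried the changes was not tested.

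**Figure D3:**
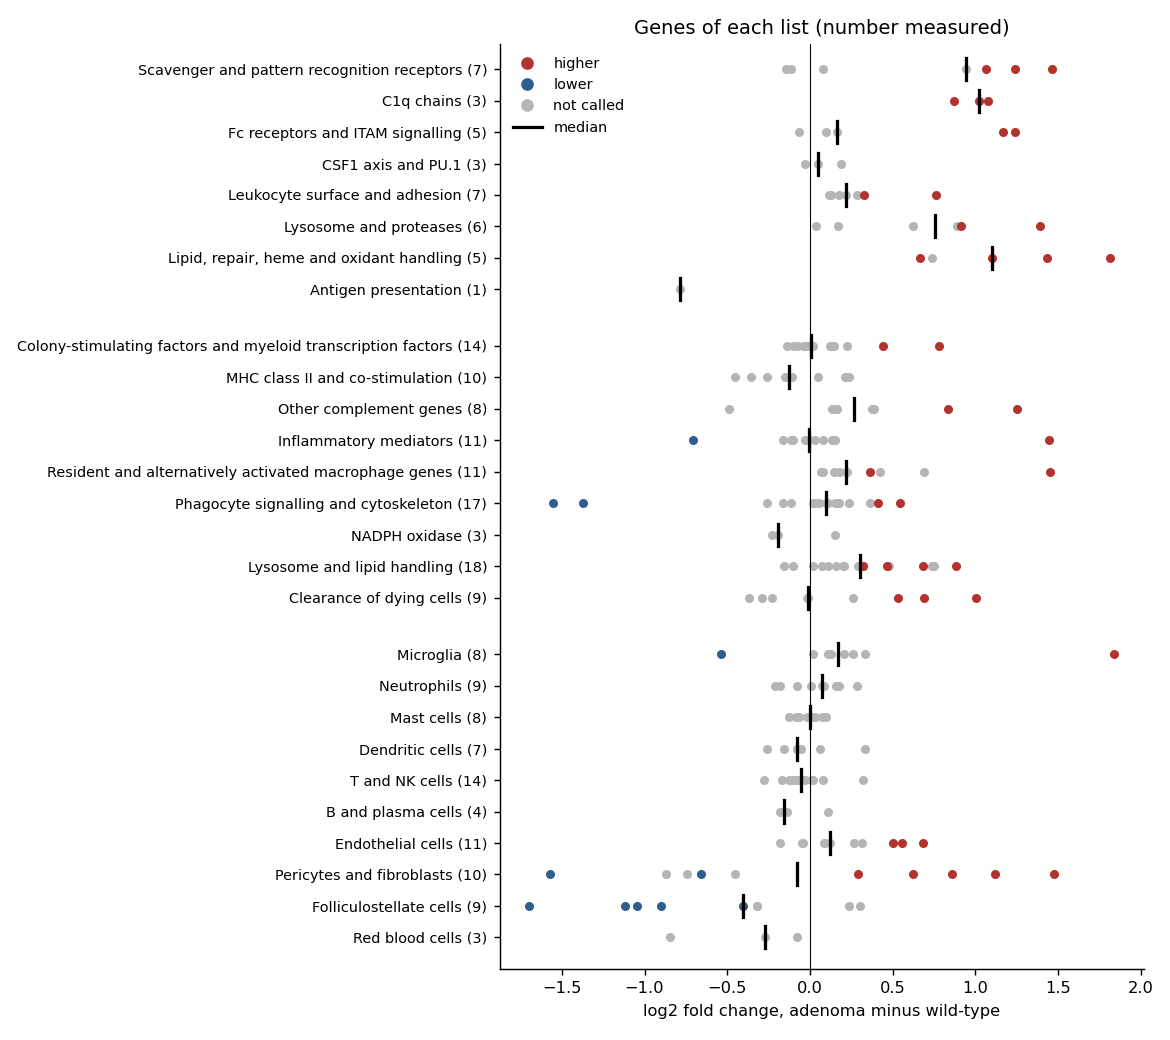
Log2 fold change (horizontal axis) of every measured gene in the macrophage groups (top), in related pathways (middle) and in lists of markers of other cells (bottom); red genes were higher and blue genes lower at an adjusted p under 0.05, grey genes were not called, and the black tick is the median of the list. The medians of C1q chains (1.02) and of lipid, repair, heme and oxidant handling (1.10) are the farthest to the right, and the lymphocyte, neutrophil, mast cell and dendritic cell lists hold grey points only.

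Markers of other immune cells were measured beside these genes. None was called among 9 markers of neutrophils, 8 of mast cells, 7 of dendritic cells, 14 of T and NK cells and 4 of B and plasma cells. At an unadjusted p under 0.05, 1 neutrophil gene was higher, and 1 neutrophil, 1 T and NK and 1 B and plasma cell gene were lower. The mean level of the T and NK list lay between 5.51 and 5.62 in wild-type pituitaries and between 5.36 and 5.75 in adenomas, and that of the neutrophil list between 5.04 and 5.24 and between 5.05 and 5.48. The T cell receptor chain genes Cd3d, Cd3e and Cd3g were at means of 4.90, 5.07 and 3.64 in adenomas and 4.89, 5.15 and 3.56 in wild-type tissue. Mean levels were lower still for mast cells (4.3 to 4.5 and 4.3 to 4.4) and B and plasma cells (4.7 to 5.1 and 4.7 to 4.9, wild-type first). The mean levels of all these lists lie below the median probe set (6.43), where the array understates a fold. The lack of calls therefore does not show that these cells were unchanged.

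Markers of microglia, the macrophages of the nervous tissue, which the posterior lobe could hold, were split. Of 8 genes Tmem119 was higher (1.84, adjusted p = 0.0011) and Sall1 was lower (-0.54, adjusted p = 0.0116), while P2ry12, a receptor that defines microglia, was at 6.06 in wild-type tissue and 6.32 in adenomas without a call. With 1 gene higher and 1 lower of 8, the calls stand beside 8.49% and 9.06% of all probe sets. The mean level of the list lay between 6.44 and 6.77 in wild-type tissue and between 6.53 and 7.28 in adenomas.

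Vascular, stromal and folliculostellate markers were called in part, where 8.49% of all probe sets were higher and 9.06% were lower. Endothelial genes were higher in 3 of 11 cases with none lower (median 0.12), with Flt1, Esam and Eng at 0.69, 0.55 and 0.50, and the mean level of the list was 7.08 to 7.45 in wild-type pituitaries and 6.95 to 7.75 in adenomas. Of 10 genes of pericytes and fibroblasts 5 were higher, among them Postn (1.47), Rgs5 (1.12) and Tagln (0.86), and 2 were lower, Ogn (-1.57) and Pdgfra (-0.66), around a median of -0.08, with mean levels from 7.34 to 7.88 in wild-type tissue and from 6.92 to 8.00 in adenomas. Of 9 markers of folliculostellate cells, the phagocytic support cells of the anterior pituitary, 5 were lower and none was higher (median -0.40), with mean levels from 7.21 to 7.96 and from 6.78 to 7.33. Of 3 red blood cell genes none was called, and the hemoglobin gene Hbb was at 10.78 in wild-type tissue and 9.94 in adenomas. What these cells contributed to the values of the macrophage genes was not tested.

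Among adenomas, those of the youngest rats by the labels had the lowest median values of the called genes. Adenoma 6, from a rat of 8 months, was the lowest of the 9 in 11 of the 16 called genes, with a median difference of 0.28 from the wild-type mean. Adenoma 4, of 7 months, had a median difference of 0.71, and the other 7, of 10 to 12 months, lay between 0.98 and 1.35. A slope on age over the 9 adenomas was not called for any of the 37 genes (limma, adjusted p under 0.05), where 0.00342% of all probe sets were called. At an unadjusted p under 0.05, 11 genes passed, of which 10 were positive. The share of all probe sets at that threshold was not counted, so the 11 cannot be set against it. The steepest positive slope was that of Gpnmb, 0.42 per month (95% interval 0.25 to 0.60, adjusted p = 0.136), followed by Cd163 at 0.31 (adjusted p = 0.227) and Mrc1 at 0.27 (adjusted p = 0.173). Cd74 was the negative one, at -0.40 per month (-0.71 to -0.10, adjusted p = 0.305). With the number prefix as a further term no gene was called either (0.0103% of all probe sets), and the lowest adjusted p was 0.0725, for Gpnmb.

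**Figure D4:**
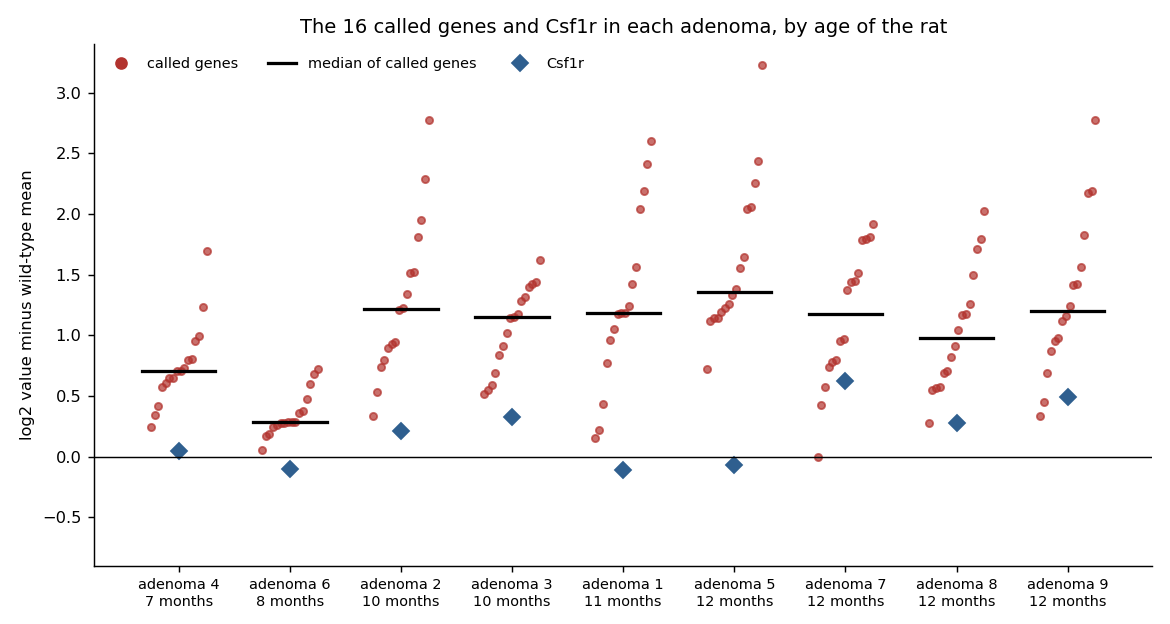
Log2 value minus the wild-type mean (vertical axis) of the 16 called genes (red points) and of Csf1r (blue diamonds) in each adenoma, ordered by the age of the rat; black bars are the medians of the called genes. The medians are 0.71 and 0.28 in the adenomas of 7 and 8 months and lie between 0.98 and 1.35 in those of 10 to 12 months.

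Differences between the sexes were not called. The interaction of group and sex passed for no probe set (0.0% of 29214), and at an unadjusted p under 0.05 it did for Apoe, Tlr4 and Csf1 among the 37 genes. Apoe was at 10.61 in 2 female and 10.03 in 3 male wild-type pituitaries and at 11.40 in 6 female and 12.28 in 3 male adenomas (interaction 1.46, 95% interval 0.18 to 2.74, adjusted p = 0.689). Males and females were not called different among adenomas for any gene either (0.0%), although Cd53, Cd68 and Itgb2 were higher and Csf1 was lower in males at an unadjusted p under 0.05. All 3 males carried the prefix 08.

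Lesions that shared a number differed less than adenomas of different numbers for most genes. The SD among lesions of 1 number (7 degrees of freedom) was below the SD among the 9 adenomas for 27 of 37 genes. The share of all probe sets for which this holds was not counted. Lesions of 1 number resembled each other over the whole array too, with a consensus correlation of 0.39 over all probe sets in limma. For Laptm5 it was 0.20 against 0.67, for C1qa 0.15 against 0.35 and for Cd74 0.27 against 1.10. In Cd68 both were alike, at 0.38 and 0.37. The widest range within a number was that of Cd36 in adenoma 5, whose 3 lesions were at 5.55, 7.37 and 7.43, and the same lesions had Cd163 values of 6.50, 7.41 and 7.66.

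Finally, each gene was set against C1qa over the 9 adenomas, 36 relations in all. Pearson's r was positive for 33 of them. The share of all probe sets with a positive r was not counted, so the 33 cannot be set against it. For C1qb it was 0.894 (exact permutation test, two-sided, p = 0.00234, adjusted over the 36 relations 0.0461) with Spearman's rho of 0.683 (exact permutation p = 0.0503, adjusted 0.302), and for Ctss it was 0.899 (exact permutation p = 0.00256, adjusted 0.0461) with rho of 0.617 (exact permutation p = 0.0857, adjusted 0.343). Without adenomas 4 and 6, which lay farthest from the median of C1qa and came from the youngest rats, r fell to 0.456 and 0.426. Leaving out the extremes of C1qa narrows its range, which can by itself lower r. Whether these relations rest on the youngest rats was therefore not tested. After subtracting the mean of each number prefix r was 0.895 for C1qb and 0.899 for Ctss. No relation passed by rho, and that of Csf1r was at an r of 0.61 (exact permutation p = 0.0807, adjusted 0.215) and a rho of 0.75 (exact permutation p = 0.0255, adjusted 0.28), with r = 0.592 without adenomas 4 and 6.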

How the data were processed

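RNA from macrodissected pituitary tissue was hybridised by the authors to Rat Gene 1.0 ST arrays of Affymetrix, and the deposited log2 expression values of 29214 probe sets on 21 arrays were summarised and normalised by RMA in Affymetrix Expression Console, whose version is not given in the sources used here. RMA compresses differences at low signal, and precision is limited by how many arrays there are. Of these probe sets 15310 carry 1 gene symbol in the platform annotation, 323 several and 13581 none, and only those with 1 symbol name a gene. The authors' scanner files were not used here.

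Lesions of 1 sample number were averaged, and adenomas were compared with wild-type pituitaries by limma 3.58.1 (lmFit and eBayes, 12 residual and 3.212 prior degrees of freedom, R 4.3.3) over all probe sets with Benjamini-Hochberg adjustment and a threshold of 0.05. Correlations were tested by exact permutation. Python 3.11.15, numpy 2.4.6, pandas 2.3.3, scipy 1.17.1 and matplotlib 3.10.9 were used, and the fit was tested on simulated data. The genes and lists were chosen with earlier results of these data known, and the comparison with Csf1r was added after the design was set. Every measured gene of the list was named, with up to 4 called genes of each further list by size. Gh1, Cga, Gnrhr, Il34, C3, P2ry12, Hbb, Pdgfra and the Cd3 genes were named beyond that rule, after their values were seen. Alternatives covered the treatment of lesions, prefix, sex, age, replicate block, scaling, dim probe sets, weights, the methods' t-test, thresholds and each sample left out.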

Additional observations from a re-analysis of the deposited data

Results flagged for a closer look

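Among 74 groups of values (37 genes in 5 wild-type pituitaries and in 9 adenomas) 3 held a sample set apart from the others of its group by Dixon's criterion, which chance meets in about 1 in 20 groups. Cd163 was at 5.25 in wild-type pituitary 3, and the next lowest wild-type value was 5.59. C1qc was at 8.18 in adenoma 6, from a rat of 8 months, and the next lowest adenoma was at 8.81. Spi1, which encodes PU.1, was at 5.98 in adenoma 3, and the next highest adenoma was at 5.75.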

How the results depend on the processing

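None of the 16 called genes changed sign in 14 fits without 1 sample and 16 other settings. Without 1 sample, 14 to 18 genes were higher, and 14 of the 16 kept their call each time (all but Fcgr2b and Itgb2). With the lesions, prefix, sex, scaling, filter on dim probe sets (which left out 10 of the genes), weights or methods' t-test changed, 14 to 20 were higher, at an adjusted p under 0.01 it was 12, and with a fold over 2 it was 11. Within prefix 08 alone 1 gene was higher (median log2 fold change 0.30) and 8 changed more than Csf1r. Within prefix 09 alone these values were 10, 0.40 and 5, and against the adenomas of 7 and 8 months alone 0, 0.30 and 0. By the methods' t-test on averaged values 2 genes changed more than Csf1r, against 183 of 29213 probe sets. In the subsets named before it, 478, 405 and 96 probe sets changed more than Csf1r. These subsets hold fewer samples, and other causes were not tested. Genes without a call changed sign as follows. Prefix 08 alone gave 0.00467 for Tlr4, -0.0498 for Fcer1g, 0.13 for Trem2, 0.15 for Csf1, -0.0207 for Csf1r, -0.00619 for Adgre1, -0.0161 for Aif1, -0.20 for Ctsb and -0.14 for Ctsd. The adenomas of 7 and 8 months alone gave -0.0258 for Csf1r, -0.091 for Itgam, -0.0369 for Adgre1, -0.0567 for Ctss, -0.0735 for Ctsb and 0.55 for Cd74. Csf1 was at 0.0204 with the prefix as a block, 0.0118 with arrays centred on their medians and 0.0188 with quantile normalization again, which also gave 0.00152 for Trem2 and -0.0452 for Ctsb. Tlr4 was at 0.0335 with sex as a covariate. Of the other genes without a call, Ctss and Cybb passed in both fits with lesions as separate samples and by the methods' t-test on the 16 lesions, Ctss also without dim probe sets, and Lyz2 with lesions as independent samples. Without 1 sample the values ran from -0.00136 to 0.11 for Spi1, -0.32 to 0.0438 for Tlr4, -0.11 to 0.071 for Csf1, -0.0323 to 0.20 for Fcer1g, -0.15 to 0.0542 for Trem2 and -0.0701 to 0.15 for Ctsb. The fit with the replicate number as a block kept only the 5 lesions that share a replicate number with a wild-type pituitary. They came from adenomas 1, 2 and 3, all of prefix 08, and entered as separate samples although adenomas 1 and 2 gave 2 each. Its p-values thus do not measure the spread between rats. In this fit 16 genes were higher (median 0.70), and Cd53 and Itgb2 lost their call. Cd36 (1.29, limma adjusted p = 0.000858) and Ctss (0.83, adjusted p = 0.0127) gained one, and Tlr4 was at 0.14. Samples of the same number did not all deviate together (correlations from -0.05 to 0.20), and 3 of 10 samples correlated best with their own number, so that the numbers were not taken as pairs. Over all probe sets the higher and lower calls numbered 2479 and 2648, against 363 and 345 within prefix 08 alone, 119 and 14 for the adenomas of 7 and 8 months alone, 1573 and 1649 without wild-type pituitary 4, and 3562 and 4142 with lesions as independent samples. Centring arrays gave 2717 and 2013, and leaving out dim probe sets 2408 and 1765. A search for Msr1 and Itgax by gene ID or synonym gave no probe set of either gene and hence no value.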
